A study of Mus musculus with 16 samples.

Results

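The Rab genes encode small GTPases that mark the membranes of a cell and direct the movement of vesicles between them. Of 43629 genes in the polyA read tables, 58 had a symbol made of Rab, a number and optionally a further letter and digit, and these 58 were taken as the Rab genes. The RNA came from AFT024 and BFC012, stromal cell lines derived from the fetal liver of C57BL/6 mice at 14.5 dpc (days post coitum), and from the exosomes that each line releases. AFT024 is labelled as supporting hematopoietic stem and progenitor cells and BFC012 as not supporting them. No treatment or allele is named for any group. The 4 groups were AFT024 exosomes, AFT024 cells, BFC012 exosomes and BFC012 cells, with 2 polyA libraries listed for each. Exosome RNA from several extractions was pooled and divided into technical sequencing replicates, which the authors merged, and the tables hold 1 value per group. No spread between replicates can therefore be given, no p-value was computed, and each interval below covers counting error only.

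A Rab protein switches between a GTP-bound form, which recruits effectors such as motors and tethers, and a GDP-bound form. Exchange factors load GTP, GTPase-activating proteins trigger its hydrolysis, and GDI proteins extract the prenylated GDP form from membranes. Rab27a and Rab27b are known for docking multivesicular endosomes at the plasma membrane in human cells that release exosomes, and Rab11a and Rab35 have also been tied to exosome release. The mRNA of Rab13 is known in mouse fibroblasts for its transport into cell protrusions, through GA-rich elements in its 3′ UTR.

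The read tables held 9038471 reads for AFT024 exosomes, 39385534 for AFT024 cells, 16344350 for BFC012 exosomes and 35874383 for BFC012 cells. Rab genes took 0.225% of the reads of AFT024 exosomes against 0.341% of AFT024 cells, and 0.264% of BFC012 exosomes against 0.364% of BFC012 cells. A lower share in exosomes is not particular to these genes. With reads scaled by library size, the median log2 ratio of exosomes over cells was -0.67 in AFT024 and -0.61 in BFC012 over all measured genes. Stromal marker transcripts summed to 1770 RPM (reads scaled to a common library size) in AFT024 exosomes against 11736 in AFT024 cells, and to 2353 in BFC012 exosomes against 9070 in BFC012 cells. Thy1, among those 9 markers, had 0 reads in both exosome groups and in BFC012 cells. By the read ratios described below, Pdgfra alone of them was past 2-fold higher in exosomes of both lines, at 2.28 in AFT024 and 4.82 in BFC012. Col1a1, Col3a1, Fn1 and Sparc were past 2-fold lower in both. Hepatocyte, erythroid, leukocyte and endothelial markers each summed to less than 4 RPM in every group, with Alb at 0 in both AFT024 groups and Hbb-bs at 0 in all 4. Epithelial markers summed to 5.64 in AFT024 exosomes against 1.35 in AFT024 cells, and to 8.02 in BFC012 exosomes against 24.5 in BFC012 cells. Cdh1 held 756 of the 878 epithelial reads in BFC012 cells, where Epcam had 0. Transcripts of 7 exosome marker proteins summed to 389 in AFT024 exosomes against 1249 in AFT024 cells, and to 647 in BFC012 exosomes against 1226 in BFC012 cells. By read ratio, Flot1 at 2.02 and Pdcd6ip at 1.68 were higher in BFC012 exosomes, while Cd63, Cd9 and Cd81 were past 2-fold lower in both lines. The part of these markers in the Rab values was not tested.

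Between 41 and 46 Rab genes had at least 20 reads in a group. Rab9b, Rab19 and Rab39 had 0 reads in all 4 groups, Rab26 and Rab44 had 3 reads each, both in AFT024 cells, and Rab17, Rab33a, Rab38 and Rab42 had no more than 6 reads in any group. The deposited length-scaled values, in FPKM (fragments scaled to transcript length and sequencing depth), covered 50 of the 58. Rab2b, Rab4a, Rab9, Rab9b, Rab19, Rab26, Rab33a and Rab39b had no FPKM value and are described by reads alone.

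By FPKM, the order of the Rab transcripts differed between exosomes and cells. Rab13, which acts in polarised and junctional transport, had the highest FPKM of the 50 genes in both exosome groups. Its level was 143 FPKM in AFT024 exosomes against 18.4 in AFT024 cells, and at 88.1 FPKM in BFC012 exosomes against 13 in BFC012 cells. In both cell groups the order was led by Rab7, the late endosome and lysosome Rab, then Rab11a of recycling endosomes, Rab1 of transport from the endoplasmic reticulum to the Golgi, and Rab34 of lysosome positioning and cilia. Rab7 measured 29.1 FPKM in AFT024 exosomes against 233 in AFT024 cells, and 72.0 FPKM in BFC012 exosomes against 252 in BFC012 cells. Rab11a measured 25.9 FPKM in AFT024 exosomes against 160 in AFT024 cells, and 38.8 FPKM in BFC012 exosomes against 176 in BFC012 cells. The median over the 50 genes was 4.14 FPKM in AFT024 exosomes against 13.7 in AFT024 cells, and 5.30 FPKM in BFC012 exosomes against 13.8 in BFC012 cells. The median of all genes was also lower in exosomes on the log2(FPKM + 1) scale, by -1.23 in AFT024 and -0.92 in BFC012.

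**Figure D1:**
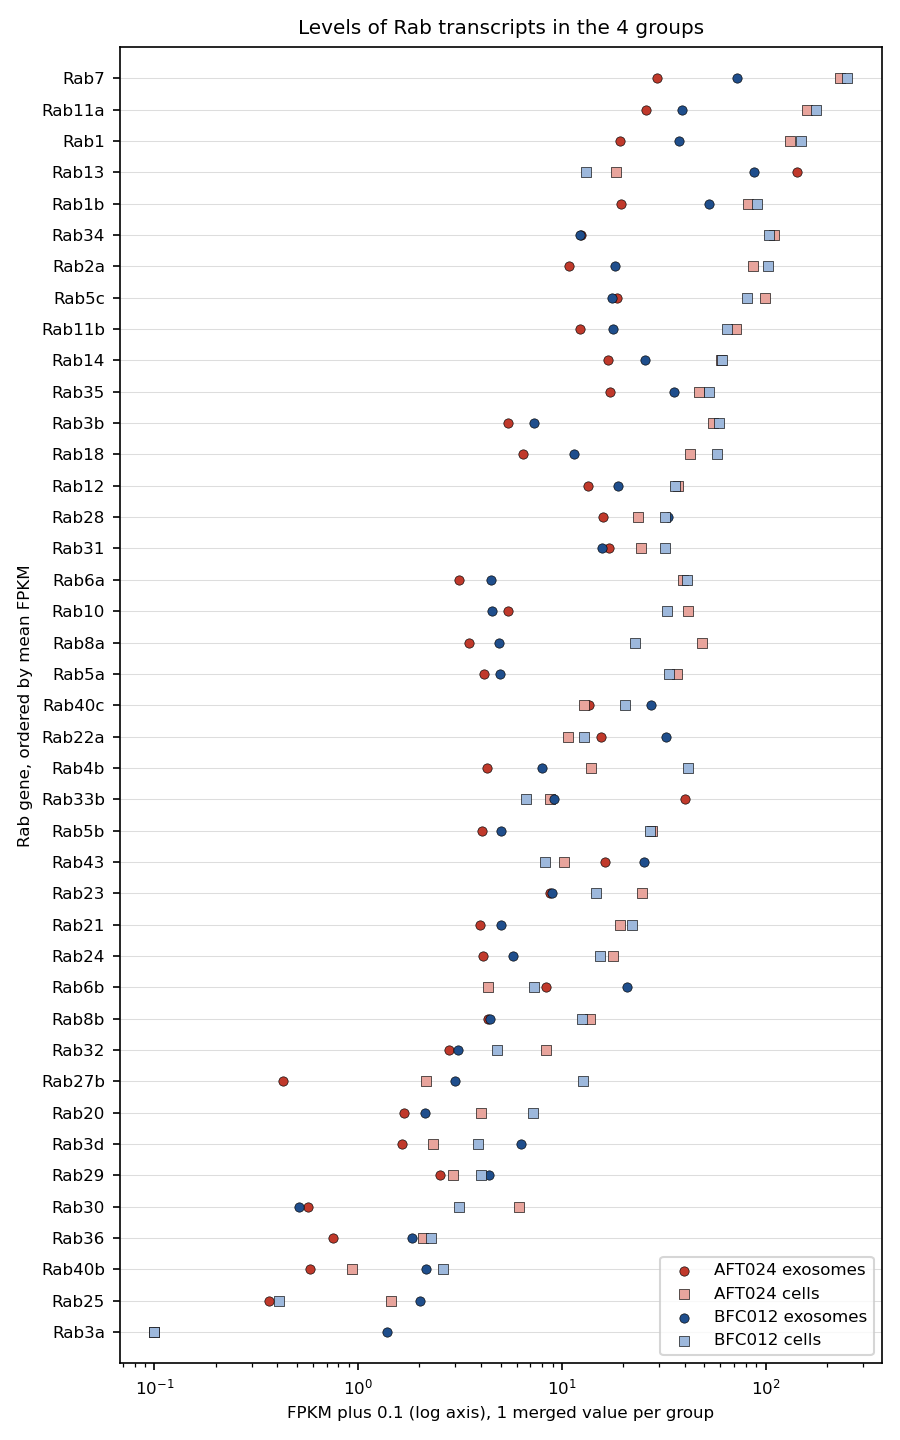
Deposited FPKM plus 0.1 of each Rab gene that reached 1 FPKM in at least 1 group, on a log axis, with circles for exosomes and squares for cells and 1 merged value per group. Rab13 is the only gene among the 10 with the highest mean FPKM whose exosome values (143 in AFT024 and 88.1 in BFC012) lie above the cell values (18.4 in AFT024 and 13 in BFC012).

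For comparisons between groups, whole reads were used. The deposited values were reads divided by a factor per group, and each ratio below is a ratio of reads scaled by median-of-ratios size factors, given with its exact 95% interval. A gene was measured in a comparison when the groups compared held at least 20 reads together, and it was called when its ratio was at least 2-fold in either direction. Reads from a bulk preparation do not show whether fewer vesicles or cells carried a transcript or each carried less of it, and these cannot be told apart.

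The first question was how the exosomes of each line differ from the cells that release them. In AFT024, 7 of 47 measured Rab genes were higher in exosomes past 2-fold, where 21.2% of all 13383 measured genes were, and 17 were lower, where 28.7% of all genes were. In BFC012, 10 of 47 were higher, against a background of 23.4% of 13328 genes, and 15 were lower, against 26.9%. The median log2 ratio of the Rab genes was -0.49 in AFT024 and -0.36 in BFC012, beside -0.25 and -0.11 for all measured genes. Scaling by library size moved the median of all genes to -0.67 in AFT024 and -0.61 in BFC012, and it gave 7 Rab genes higher with 23 lower in AFT024, where 15% of all genes were higher and 40.2% lower. In BFC012 it gave 7 higher with 21 lower, where 15.2% of all genes were higher and 39.6% lower. On the log2(FPKM + 1) scale the median of all genes was -1.23 in AFT024 and -0.92 in BFC012. Genes that reached 1 FPKM in either group were measured on this scale. Of 39 such Rab genes in AFT024, 2 were higher and 26 lower, where 8.26% of all genes were higher and 57.4% lower. In BFC012 that scale gave 6 of 41 higher with 22 lower, where 8.8% of all genes were higher and 47.7% lower. Taken relative to the median gene, this scale called 7 upward and 15 downward for AFT024, beside 3215 and 2960 of 13971 genes. For BFC012 it called 10 upward and 14 downward, beside 3189 and 3030 of 13984 genes. Directions below are therefore relative to the median-of-ratios scale.

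The lines, which share no group in these comparisons, gave overlapping lists. Of 46 Rab genes measured in both lines, Rab6b, Rab13, Rab15, Rab22a, Rab29, Rab40c and Rab43 were higher in the exosomes of both, where 15.9% of 12535 genes were. Lower in both were 12 genes, namely Rab2a, Rab3b, Rab5a, Rab5b, Rab5c, Rab6a, Rab8a, Rab9, Rab10, Rab18, Rab30 and Rab34, where 19.1% of genes were. Past the threshold in opposite directions were 0 Rab genes and 88 of the 12535 genes. Near the threshold, Rab2b (0.496) and Rab27b (0.493) lay just inside in AFT024 and Rab21 (0.529) just outside, while Rab11a (0.482) and Rab28 (2.06) lay just inside in BFC012 and Rab1 (0.518) and Rab35 (1.96) just outside.

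**Figure D2:**
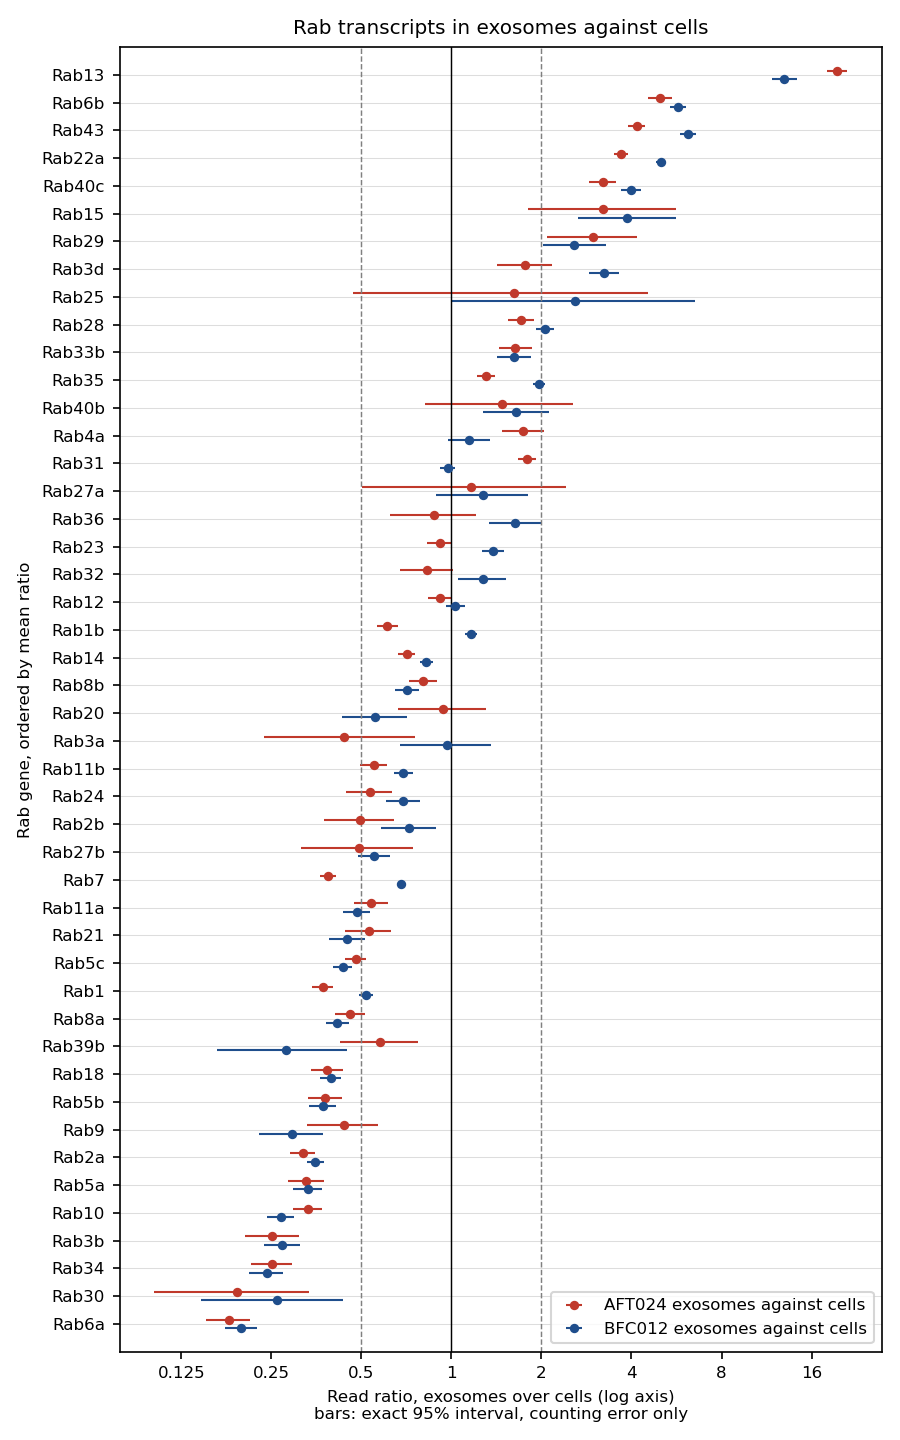
Read ratio of exosomes over cells on a log axis for the 46 Rab genes measured in both lines, AFT024 in red and BFC012 in blue, with exact 95% intervals for counting error and dashed lines at 2-fold. Rab13 lies apart at the top (19.5 in AFT024 and 13 in BFC012) and Rab6a at the bottom (0.180 in AFT024 and 0.198 in BFC012).

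Among the Rabs of recycling and polarised transport, Rab13 had the highest ratio of all measured members. Its gene lies on chromosome 3, 90213695 to 90226385 (mm10, plus strand). It had 2719 reads in AFT024 exosomes against 815 in AFT024 cells, a ratio of 19.5 (18 to 21.1). In BFC012 it had 2253 reads in exosomes against 539 in cells, a ratio of 13 (11.8 to 14.3). Rab13 made up 13.4% of all Rab reads in AFT024 exosomes against 0.607% in AFT024 cells, and 5.23% in BFC012 exosomes against 0.413% in BFC012 cells. Of all measured genes, 1.41% in AFT024 and 1.67% in BFC012 had a ratio at or above that of Rab13.

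The 3′ UTR of Rab13 is shown because its GA-rich elements are the known carriers of the transcript's transport. The stretch of 30 bases with the most GA motifs lies in the exonic 3′ UTR at chr3:90225776-90225805 (mm10, plus strand, from the GENCODE M21 transcripts), with the motifs in capitals and written as DNA, 5′ to 3′.
Rab13 3′ UTR: AGAAGGGatttgAGAAGAGgaaaGGAAGAA
A motif is a purine, then GAAG, then a purine at each of the next 2 positions, which gives 8 spellings of 7 bases, read on the transcript strand with overlaps counted. The stretch holds 3 motifs, and the whole 3′ UTR of 386 bases holds 5. That density of 12.95 per kilobase was reached by 0.258% of 19374 coding genes with a 3′ UTR of at least 100 bases. A run of 3 motifs within 30 bases was present in 2.05% of those genes, and among the Rab genes in Rab13 and Rab3c. Rab3c, a neuronal secretory Rab, had 0 reads in AFT024 exosomes and cells, and 8 reads in BFC012 exosomes against 32 in BFC012 cells. A motif match describes these letters and is no evidence of a bound factor.

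The other recycling and polarised transport genes went in both directions. Rab15, an early endosome to recycling Rab, had 21 reads in AFT024 exosomes against 38 in AFT024 cells, a ratio of 3.22 (1.80 to 5.63), and 67 in BFC012 exosomes against 54 in BFC012 cells, a ratio of 3.86 (2.65 to 5.62). Rab35, which acts in fast recycling, was under the threshold at 1.31 (1.22 to 1.40) in AFT024 and 1.96 (1.87 to 2.06) in BFC012. Rab8a and Rab10, of the same subfamily as Rab13, were lower in exosomes. Rab8a had a ratio of 0.459 (0.408 to 0.516) in AFT024 and 0.416 (0.381 to 0.454) in BFC012, and Rab10 had 0.330 (0.296 to 0.368) and 0.269 (0.243 to 0.297). By FPKM, Rab8a measured 3.39 in AFT024 exosomes against 48.7 in AFT024 cells, a ratio of 0.0697. In BFC012 it measured 4.84 in exosomes against 22.8 in cells, a ratio of 0.212. The median gene was also lower in exosomes by FPKM, so these ratios cannot be set directly beside the read ratios. Relative to the median gene on the log2(FPKM + 1) scale, Rab8a was past 2-fold lower in both lines. Its FPKM ratio differed more between the lines than its read ratio, and the cause was not tested.

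Rab11a, of recycling endosomes, lies on chromosome 9, 64715299 to 64737758 (mm10). It had 260 reads in AFT024 exosomes against 2812 in AFT024 cells, a ratio of 0.539 (0.473 to 0.613). In BFC012 it had 418 in exosomes against 2693 in cells, a ratio of 0.482 (0.434 to 0.535). Its paralog Rab11b gave 0.550 (0.495 to 0.609) in AFT024 and 0.690 (0.641 to 0.743) in BFC012. Both genes were therefore lower in the exosomes of each line, with only Rab11a in BFC012 past 2-fold. Rab14, which links the Golgi and endosomes, was nearer to the cells at 0.710 (0.665 to 0.758) and 0.825 (0.786 to 0.866), and Rab8b likewise at 0.805 (0.724 to 0.893) and 0.709 (0.646 to 0.778). Rab4a, of early recycling, was at 1.74 (1.48 to 2.04) in AFT024 and 1.15 (0.977 to 1.34) in BFC012. Rab4b had at most 12 reads in a group and was not measured by reads in exosomes against cells. Its deposited FPKM nevertheless reached 41.4 in BFC012 cells, and it is among the genes counted lower on the log2(FPKM + 1) scale in both lines. Of its exonic bases, 65.0% are shared with other genes on the same strand. Rab25, an epithelial Rab11 relative, had 5 reads in AFT024 exosomes against 18 in AFT024 cells, and 10 in BFC012 exosomes against 12 in BFC012 cells, and its interval in BFC012 ran from 1.0 to 6.54.

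Among the Rabs of the Golgi and of transport from the endoplasmic reticulum, Rab6a and Rab6b went in opposite directions. Rab6a, the ubiquitous Golgi Rab, lies on chromosome 7, 100607410 to 100641268 (mm10, plus strand), and was lowest of the members with at least 100 reads in both lines. It had 142 reads in AFT024 exosomes against 4606 in AFT024 cells and 273 in BFC012 exosomes against 4280 in BFC012 cells, ratios of 0.180 (0.151 to 0.213) and 0.198 (0.175 to 0.224). Rab6b, known as the brain-enriched form, lies on chromosome 9, 103111787 to 103185276 (mm10). It had 851 reads in AFT024 exosomes against 997 in AFT024 cells and 2866 in BFC012 exosomes against 1556 in BFC012 cells, ratios of 4.98 (4.54 to 5.46) and 5.72 (5.38 to 6.09). The ratios of this pair were 27.7-fold apart in AFT024 and 28.9-fold apart in BFC012. Of the exonic bases of Rab6a, 19.0% overlap Mrpl48 on the opposite strand, and the library kit does not mark strand. Mrpl48 itself had a ratio of 1.83 in AFT024 and 1.58 in BFC012.

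Rab43, a Golgi Rab, was higher in exosomes at 4.16 (3.89 to 4.44) in AFT024 and 6.17 (5.81 to 6.56) in BFC012. Of its exonic bases, 75.4% are shared with Gm45140, a gene model on the same strand, so reads of these models cannot be told apart and the value is uncertain. Rab1, Rab2a and Rab18, which serve the early secretory pathway and lipid droplets, were lower in exosomes. Rab1 was at 0.371 (0.341 to 0.403) in AFT024 and 0.518 (0.492 to 0.546) in BFC012, and Rab2a at 0.318 (0.288 to 0.350) and 0.350 (0.328 to 0.374). Rab18 was at 0.385 (0.339 to 0.434) and 0.395 (0.364 to 0.428). Rab30, a Golgi Rab with 13 reads in AFT024 exosomes and 16 in BFC012 exosomes, was at 0.192 (0.102 to 0.333) and 0.260 (0.146 to 0.434). Of the 12 measured genes of this role, 2 were higher and 6 lower in AFT024, beside 21.2% and 28.7% of all genes. In BFC012 2 were higher and 5 lower, beside 23.4% and 26.9%.

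Rab2b was at 0.496 (0.375 to 0.644) in AFT024 and 0.721 (0.580 to 0.889) in BFC012, but 64.0% of its exonic bases overlap Tox4 and Gm43766 on the opposite strand, so these values are uncertain. Rab39b was at 0.578 (0.423 to 0.773) in AFT024 and 0.280 (0.165 to 0.448) in BFC012. Rab36 was at 0.877 (0.621 to 1.21) in AFT024 and 1.63 (1.34 to 1.99) in BFC012.

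Rab1b, the close paralog of Rab1, differed between the lines. It had 680 reads in AFT024 exosomes against 6493 in AFT024 cells, a ratio of 0.611 (0.564 to 0.661), and 2468 in BFC012 exosomes against 6604 in BFC012 cells, a ratio of 1.16 (1.11 to 1.22). The intervals lie on opposite sides of 1 on the median-of-ratios scale. Under library-size scaling both values were below 1, at -1.13 in AFT024 and -0.29 in BFC012 on the log2 scale. Rab33b, of Golgi and autophagy, was at 1.64 (1.44 to 1.85) in AFT024 and 1.62 (1.42 to 1.84) in BFC012 by reads. Its FPKM was 39.9 in AFT024 exosomes against 8.69 in AFT024 cells and 9.03 in BFC012 exosomes against 6.57 in BFC012 cells, so reads and FPKM give different sizes for this gene. Of its exonic bases, 18.7% overlap Gm38160 on the opposite strand.

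The early endosome Rabs split between Rab22a and the Rab5 genes. Rab22a, of early and recycling endosomes, had 2274 reads in AFT024 exosomes against 3587 in AFT024 cells, a ratio of 3.70 (3.51 to 3.90). In BFC012 it had 6363 reads in exosomes against 3945 in cells, a ratio of 5.01 (4.82 to 5.22), and it held 14.8% of all Rab reads in those exosomes against 3.02% in BFC012 cells. Rab5a, Rab5b and Rab5c, which drive fusion of early endosomes, were all lower in the exosomes of both lines. Rab5a was at 0.327 (0.284 to 0.376) in AFT024 and 0.331 (0.295 to 0.370) in BFC012, Rab5b at 0.379 (0.332 to 0.432) and 0.372 (0.335 to 0.412), and Rab5c at 0.478 (0.441 to 0.517) and 0.433 (0.402 to 0.465). The ratio in AFT024 over that in BFC012 was 0.989 for Rab5a, 1.02 for Rab5b and 1.10 for Rab5c. Rab31, a close paralog of Rab22a, was at 1.79 (1.68 to 1.91) in AFT024 and 0.971 (0.915 to 1.03) in BFC012. Rab21 was at 0.529 (0.441 to 0.630) and 0.448 (0.389 to 0.514), and Rab20 at 0.940 (0.664 to 1.30) and 0.556 (0.431 to 0.711). Of the exonic bases of Rab20, 25.6% overlap E230013L22Rik on the opposite strand, so its values here and between the lines are uncertain. Rab24 has 62.4% of its exonic bases within Prelid1 on the opposite strand, so its values of 0.534 in AFT024 and 0.690 in BFC012 are uncertain.

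Among the late endosome and lysosome Rabs, Rab7 had 1099 reads in AFT024 exosomes against 16624 in AFT024 cells, a ratio of 0.386 (0.363 to 0.410), and 3677 in BFC012 exosomes against 16812 in BFC012 cells, a ratio of 0.680 (0.656 to 0.704). It was thus lower in the exosomes of both lines and past 2-fold in AFT024 only, where the ratio was 0.568 times that in BFC012. Rab34 was at 0.25 (0.213 to 0.292) in AFT024 and 0.241 (0.211 to 0.275) in BFC012. Rab9, of transport from late endosomes to the Golgi, was at 0.437 (0.330 to 0.570) and 0.293 (0.227 to 0.372). Rab29, which recruits the kinase LRRK2 to membranes in human cells, was the only gene of this role past 2-fold higher, with 53 reads in AFT024 exosomes against 104 in AFT024 cells and 126 in BFC012 exosomes against 152 in BFC012 cells. Its ratios were 2.97 (2.09 to 4.18) and 2.58 (2.02 to 3.28), and in AFT024 the difference was -0.15 on the log2(FPKM + 1) scale and 1.08 on that scale relative to the median gene. Rab12, of endosome to lysosome transport, was near the cells at 0.916 (0.833 to 1.01) and 1.03 (0.959 to 1.11). Rab32, of lysosome-related organelles, was at 0.829 (0.672 to 1.01) and 1.27 (1.05 to 1.53).

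The Rabs of regulated secretion include the genes best known for exosome release. Rab27a lies on chromosome 9, 73044854 to 73097629 (mm10). It had 9 reads in AFT024 exosomes against 45 in AFT024 cells, a ratio of 1.17 (0.501 to 2.42), and 48 in BFC012 exosomes against 117 in BFC012 cells, a ratio of 1.27 (0.891 to 1.80). Both intervals contain 1, so no difference was detectable at this depth. Rab27b, on chromosome 18, 69979131 to 70141605 (mm10), had 25 reads in AFT024 exosomes against 296 in AFT024 cells, a ratio of 0.493 (0.314 to 0.742). In BFC012 it had 314 reads in exosomes against 1769 in cells, a ratio of 0.552 (0.488 to 0.622). The ratio was past 2-fold in AFT024 and under it in BFC012, where library-size scaling took it past 2-fold. On the log2(FPKM + 1) scale relative to the median gene the AFT024 difference was 0.035. Its FPKM of 0.330 in AFT024 exosomes lies below the 1 added on that scale. Without an added value the FPKM ratio in AFT024 was 0.161.

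Rab3b and Rab3d, regulators of secretory granules, went in opposite directions. Rab3b had 98 reads in AFT024 exosomes against 2268 in AFT024 cells and 217 in BFC012 exosomes against 2481 in BFC012 cells, ratios of 0.252 (0.204 to 0.309) and 0.272 (0.235 to 0.312). Rab3d had 117 reads in AFT024 exosomes against 388 in AFT024 cells and 637 in BFC012 exosomes against 611 in BFC012 cells, ratios of 1.76 (1.42 to 2.17) and 3.24 (2.89 to 3.63). The pair stood 6.98-fold apart in AFT024 and 11.9-fold apart in BFC012. Rab3a, the synaptic vesicle Rab, had 14 reads in AFT024 exosomes against 186 in AFT024 cells and 45 in BFC012 exosomes against 145 in BFC012 cells, ratios of 0.439 (0.235 to 0.756) and 0.964 (0.674 to 1.36). It was listed at 0 FPKM in both AFT024 groups and in BFC012 cells in spite of these reads.

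The remaining members have roles outside the main transport routes. Rab40c, a Rab with a SOCS box that joins ubiquitin ligases, had 568 reads in AFT024 exosomes against 1032 in AFT024 cells and 1490 in BFC012 exosomes against 1159 in BFC012 cells, ratios of 3.21 (2.89 to 3.56) and 3.99 (3.70 to 4.32). By FPKM Rab40c measured 13.5 in AFT024 exosomes against 12.7 in AFT024 cells, and 27.4 in BFC012 exosomes against 20.2 in BFC012 cells. The median gene was lower in exosomes by FPKM. Relative to it on the log2(FPKM + 1) scale, Rab40c was past 2-fold higher in both lines. Rab40b was at 1.48 (0.815 to 2.55) and 1.65 (1.28 to 2.11). Rab28, of cilia and photoreceptors, was at 1.71 (1.54 to 1.89) in AFT024 and 2.06 (1.92 to 2.21) in BFC012. Rab23, a ciliary Rab that restrains Hedgehog signalling, was at 0.913 (0.826 to 1.01) and 1.38 (1.27 to 1.5). As a share of all Rab reads, the 9 late endosome and lysosome genes held 9.85% in AFT024 exosomes against 19.0% in AFT024 cells, and 12.2% in BFC012 exosomes against 18.6% in BFC012 cells. The 9 early endosome genes held 24.1% in AFT024 exosomes against 19.8% in AFT024 cells, and 23.2% in BFC012 exosomes against 18.8% in BFC012 cells. Rab22a alone held 11.2% in AFT024 exosomes against 2.67% in AFT024 cells, and the median log2 ratio of the 8 measured early endosome genes was -0.91 in AFT024 and -1.0 in BFC012. The 12 recycling and polarised transport genes held 32.7% in AFT024 exosomes against 25.5% in AFT024 cells, and 23.5% in BFC012 exosomes against 24.2% in BFC012 cells. Rab13 alone held 13.4% in AFT024 exosomes against 0.607% in AFT024 cells. The median log2 ratio of the 11 measured genes of this role was -0.31 in AFT024 and -0.28 in BFC012. All 4 genes outside the main routes had higher ratios than the median of all genes in both lines.

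**Figure D3:**
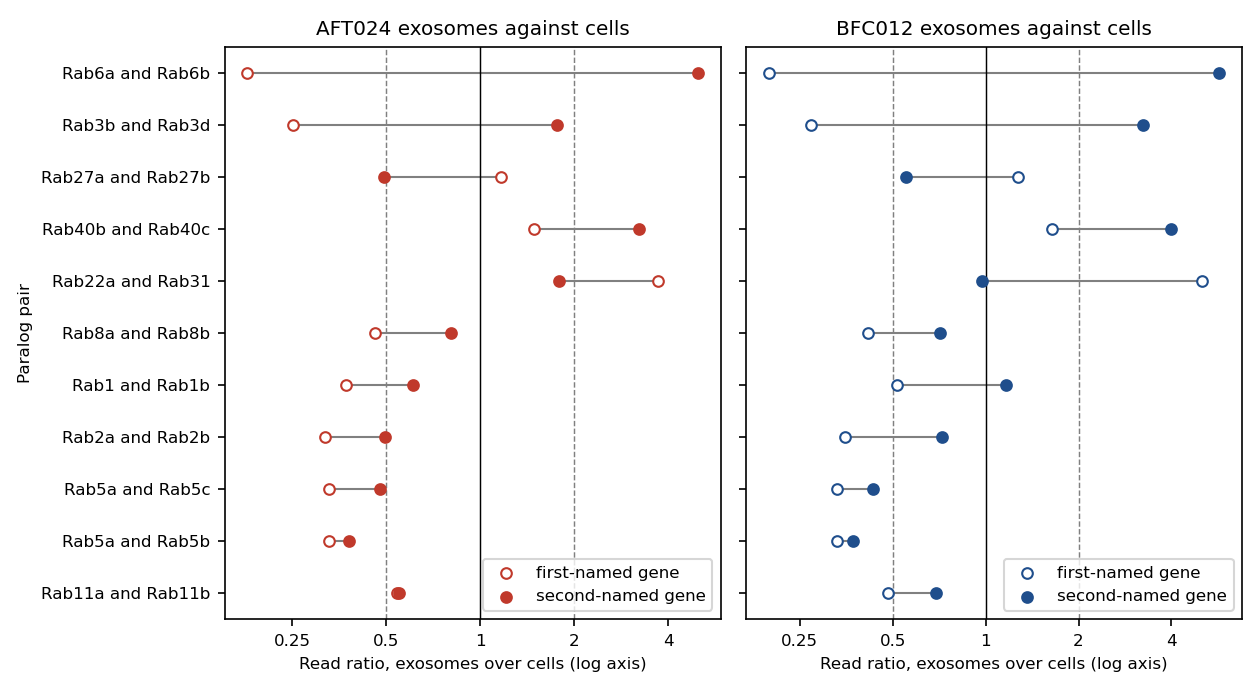
Read ratio of exosomes over cells on a log axis for 11 pairs of related Rab genes, AFT024 on the left and BFC012 on the right, with an open circle for the gene named first and a filled circle for the gene named second. The Rab6a and Rab6b ratios are 27.7-fold apart in AFT024 and 28.9-fold apart in BFC012, while Rab5a and Rab5b are 1.16-fold and 1.12-fold apart.

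Of transcript features that did not enter the choice of members, GC content of the 3′ UTR varied along with the exosome ratio. For the 47 measured Rab genes, Spearman's rho between 3′ UTR GC content and the read ratio was 0.48 in AFT024 and 0.57 in BFC012, beside 0.24 and 0.32 over all measured coding genes. With GC content of the whole transcript, rho over the Rab genes was 0.42 in AFT024 and 0.46 in BFC012. Over all coding genes it was 0.19 and 0.29. The whole transcript includes the 3′ UTR, so these relations cannot be told apart. The median 3′ UTR GC content was 52.3% in the 7 genes higher in AFT024 exosomes and 39.3% in the 17 lower ones, and 52.1% in the 10 higher in BFC012 exosomes and 38.5% in the 15 lower ones. Over all coding genes the medians were 47.2% and 41.6% in AFT024 and 48.0% and 40.7% in BFC012. With 3′ UTR length, rho over the Rab genes was -0.03 in AFT024 and -0.07 in BFC012, beside 0.13 and 0.12 over all coding genes. These genes share the same 4 merged groups and are not independent replicates, and base composition can also bear on library preparation, whose part was not tested. Several genes stood off the trend. Rab34 and Rab3b, with 3′ UTR GC contents of 51.3% and 47.1%, had low ratios in both lines. So did Rab5c at 51.3%, Rab8a at 48.4% and Rab5b at 47.9%. In the other direction, Rab28 with 40.4% had ratios of 1.71 in AFT024 and 2.06 in BFC012. Rab33b with 39.2% had ratios of 1.64 and 1.62.

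**Figure D4:**
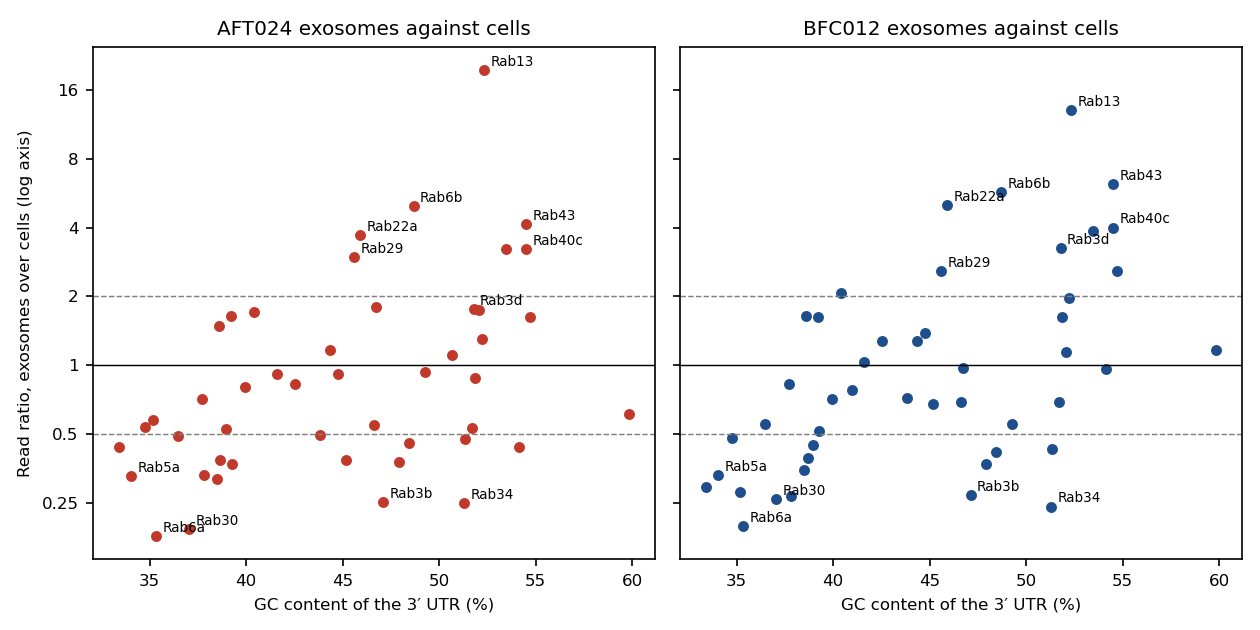
GC content of the annotated 3′ UTR in percent against the read ratio of exosomes over cells on a log axis for the 47 Rab genes measured in each line, AFT024 on the left and BFC012 on the right, with dashed lines at 2-fold. Rab6a (35.4%) and Rab5a (34.1%) lie low, while Rab43 and Rab40c (54.5% each) lie above 3-fold in both lines. Rab34 (51.3%) lies low in both lines.

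The regulators and effectors of Rab proteins were counted from lists of known genes, and are set beside the shares of all genes, which were 21.2% and 28.7% past 2-fold upward and downward in AFT024, and 23.4% and 26.9% in BFC012. Of 33 measured GTPase-activating protein genes in AFT024, 10 were higher in exosomes and 4 lower, and in BFC012 15 of 33 were higher and 3 lower, with median log2 ratios of 0.42 and 0.71. Exchange factor genes gave 6 higher and 4 lower of 33 measured in AFT024, while BFC012 gave 10 higher and 2 lower of 34, with medians of 0.19 and 0.53. Effector genes gave 17 higher and 5 lower of 47 measured in AFT024, while BFC012 gave 20 higher and 1 lower of 46, with medians of 0.39 and 0.68. These medians lie above those of all genes (-0.25 and -0.11), where the Rab genes themselves lie below. Of 8 genes for GDI, escort and prenylation, 1 was higher in each line. The lower genes numbered 2 for AFT024 and 1 for BFC012, with medians of -0.43 and -0.11.

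Usp6nl, Tbc1d16, Micall1 and Rab11fip5 had larger ratios in both lines than any measured Rab gene but Rab13. Among activating proteins, Usp6nl, which acts on Rab5 in human cells, was at 8.69 (8.31 to 9.09) in AFT024 and 7.06 (6.77 to 7.36) in BFC012. Tbc1d16, which acts on Rab4 in human cells, was at 8.28 (7.72 to 8.89) and 7.39 (6.84 to 7.99), and Tbc1d25 was lowest at 0.268 and 0.260. Among effectors, Micall1, which binds Rab8, Rab13 and Rab35, was at 6.10 (5.90 to 6.31) and 10.7 (10.2 to 11.2), and Rab11fip5, a Rab11 adaptor, at 6.40 (6.05 to 6.76) and 10.4 (9.89 to 11). Unc13d, the Rab27a effector of granule priming, was at 20.6 (17.7 to 24) in AFT024 and 2.65 (2.16 to 3.26) in BFC012. Rab11fip4 was at 7.78 (4.84 to 12.6) and 12.9 (10.2 to 16.4). Among exchange factors, Dennd3, which acts on Rab12, was at 4.78 (4.08 to 5.59) and 4.11 (3.46 to 4.89), and Sbf2 at 0.279 (0.235 to 0.329) and 0.471 (0.425 to 0.521). Rabggta, a subunit of the Rab prenylation enzyme, was at 2.13 (1.84 to 2.46) in AFT024 and 2.33 (2.01 to 2.68) in BFC012.

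The second question was how the supporting line AFT024 differs from the non-supporting line BFC012. In cells, 2 of 49 measured Rab genes were higher in AFT024, where 11.9% of 14203 genes were, and 4 were lower, where 9.46% were. In exosomes, 2 of 45 were higher in AFT024, against 14.1% of 12358 genes, and 6 were lower, against 15.1%. The median log2 ratio over the Rab genes was -0.04 in cells and -0.16 in exosomes, beside -0.00 and -0.08 for all genes. On the log2(FPKM + 1) scale, exosomes gave 1 of 40 measured Rab genes higher and 11 lower, where 8.32% of all genes were higher and 17.4% lower. Cells gave 1 of 40 higher and 2 lower on that scale, where 7.94% of all genes were higher and 6.27% lower. The genes called higher were not those called by reads. They were Rab33b in exosomes and Rab8a in cells, where the read ratio of Rab8a was 0.832 (0.797 to 0.869). The lower genes in cells were Rab27b, also called by reads, and Rab4b, with 12 reads in AFT024 and 9 in BFC012. Of the 11 lower in exosomes, 4 were also called by reads. These comparisons use the same 4 groups as those of exosomes against cells and are not independent of them.

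Rab27a and Rab27b were lower in AFT024 in both compartments. Rab27b was at 0.139 (0.0887 to 0.209) in AFT024 exosomes over BFC012 exosomes and at 0.156 (0.137 to 0.176) in AFT024 cells over BFC012 cells. By FPKM it measured 0.330 in AFT024 exosomes against 2.88 in BFC012 exosomes, and 2.05 in AFT024 cells against 12.6 in BFC012 cells. Rab27a was at 0.328 (0.141 to 0.675) in exosomes, from 9 reads in AFT024 against 48 in BFC012, and 0.358 (0.248 to 0.509) in cells. Neither interval lies wholly past 2-fold. By FPKM Rab27a measured 0.401 in AFT024 exosomes against 0.705 in BFC012 exosomes, and 0.382 in AFT024 cells against 0.991 in BFC012 cells. All of these lie below 1 FPKM, so it was not measured on the log2(FPKM + 1) scale. Rab40b followed the same order at 0.303 (0.170 to 0.511) in exosomes and 0.337 (0.251 to 0.448) in cells. Rab11a, in contrast, was at 1.09 (0.928 to 1.27) in exosomes and 0.972 (0.922 to 1.03) in cells, both intervals including 1.

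Higher in AFT024 were Rab39b in both compartments and 1 further gene in each. Rab39b, an X-linked Rab known from neurons, had 50 reads in AFT024 exosomes against 19 in BFC012 exosomes, a ratio of 4.6 (2.66 to 8.26), and 505 reads in AFT024 cells against 211 in BFC012 cells, a ratio of 2.23 (1.89 to 2.63). Of its exonic bases, 18.6% overlap Gm15063 on the opposite strand. Rab37, of secretory granules, had 42 reads in AFT024 cells against 4 in BFC012 cells, a ratio of 9.77 (3.55 to 37.5). Rab13 was past 2-fold in exosomes, at 2.11 (1.99 to 2.23), and under it in cells, at 1.41 (1.26 to 1.57). Lower in AFT024 exosomes were also Rab3d at 0.321 (0.261 to 0.391), Rab1b at 0.482 (0.442 to 0.524) and Rab36 at 0.482 (0.335 to 0.679). In cells, Rab3c had 0 reads in AFT024 against 32 in BFC012, a ratio of 0.0873 when 3 reads are taken as the floor of the AFT024 library, and the exact interval reached up to 0.114. Its FPKM was 0.0387 in AFT024 cells against 0.111 in BFC012 cells.

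The 6 Rab genes with the most reads in both cell groups were all under 2-fold between the cells of the lines. Rab7 was at 0.920 (0.901 to 0.940) in AFT024 cells over BFC012 cells, Rab1 at 0.905 (0.880 to 0.931), Rab2a at 0.848 (0.823 to 0.875), Rab1b at 0.915 (0.884 to 0.947), Rab14 at 1.0 (0.970 to 1.03) and Rab5c at 1.24 (1.20 to 1.29). In exosomes Rab7 was at 0.522 (0.488 to 0.559), Rab1 at 0.648 (0.589 to 0.711), Rab2a at 0.770 (0.687 to 0.863), Rab14 at 0.862 (0.799 to 0.929) and Rab5c at 1.37 (1.24 to 1.52). Among further genes of the cells, Rab30 was at 1.92 (1.61 to 2.29), Rab32 at 1.78 (1.58 to 2.01), Rab23 at 1.61 (1.52 to 1.71), Rab20 at 0.578 (0.494 to 0.675) and Rab6b at 0.596 (0.550 to 0.646), all under 2-fold.

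**Figure D5:**
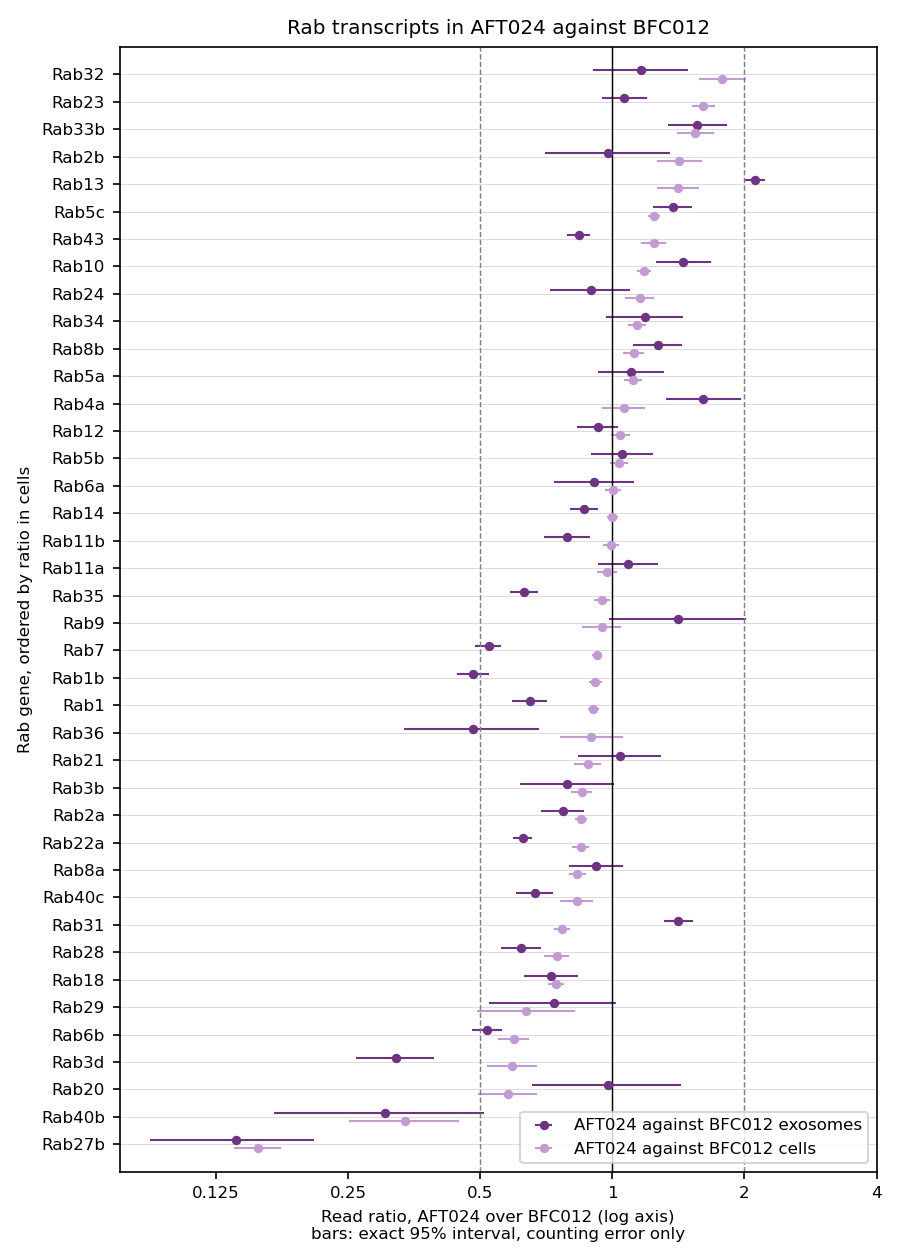
Read ratio of AFT024 over BFC012 on a log axis, in exosomes (dark) and in cells (light), for the 40 Rab genes with at least 100 reads in each comparison, with exact 95% intervals for counting error and dashed lines at 2-fold. Rab27b is lowest in both (0.139 in exosomes and 0.156 in cells), and Rab13 in exosomes (2.11) is the highest point.

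Set against each other, the exosome ratios of the lines differed past 2-fold for 2 of 46 Rab genes. The ratio of ratios, AFT024 over BFC012, was 2.06 for Rab39b, where 10.1% of 12496 genes were higher, and 0.455 for Rab3a, where 11.3% were lower. On the log2(FPKM + 1) scale, 1 of 41 measured Rab genes was higher and 5 were lower in this difference. Of all genes, 7.66% were higher and 15.7% lower. The higher gene was Rab33b and the lower ones were Rab1b, Rab3a, Rab7, Rab8a and Rab25, so only Rab3a was called by reads as well. Neither Rab39b nor Rab3a was called when the intervals of the lines also had to lie apart. Next in size were Rab31 at 1.84 and Rab20 at 1.69 above 1, and Rab1b at 0.526, Rab36 at 0.537 and Rab3d at 0.543 below 1.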

How the data were processed

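PolyA RNA of AFT024 and BFC012 cells and exosomes was extracted with Trizol, selected with oligo dT and made into libraries with a TruSeq RNA V2 kit, per the labels' protocols. This kit does not mark strand. The submitters' processing notes name TopHat, Bowtie, Cufflinks and the mm10 build. Each group has 1 merged column in the deposited files, given as FPKM and as normalised counts that the authors had divided by a size factor.

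Whole reads were recovered from the deposited normalised counts, and 100.0% of values came out whole within 0.01. They were scaled by median-of-ratios size factors over 14905 genes with reads in all 4 groups. Ratios carry exact Clopper-Pearson 95% intervals, which cover counting error only. A gene needed 20 reads summed over a comparison, a call needed 2-fold, and 3 reads served as the floor. In the pathway lists, reads of entries sharing a symbol were summed. Alternatives were library-size scaling, FPKM plus 1 or 0.1, FPKM relative to the median gene, other read minimums, and intervals past 2-fold or lying apart. Transcript features came from GENCODE M21, taking the APPRIS principal transcript. Protein features were not analysed here.

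The members and lists were chosen with earlier results of these data known. Named were Rab27a, Rab27b and Rab11a, the 8 highest and 8 lowest members of each comparison with at least 100 reads, the 6 highest and 6 lowest in the difference between the lines, the 10 highest by FPKM, up to 4 more per role, their paralogs, and the 3 highest and 3 lowest of each pathway list. Other genes named were chosen after their values were seen. Some genes that this rule names are not reported here. Python 3.11.15, numpy 2.4.6, pandas 2.3.3, scipy 1.17.1 and matplotlib 3.10.9 were used, and the scripts were tested on simulated data.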

Additional observations from a re-analysis of the deposited data

Results flagged for a closer look

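Rab1b had a read ratio of exosomes over cells of 0.611 in AFT024 and 1.16 in BFC012, with counting intervals on opposite sides of 1. The difference between the lines was not tested, since each group has 1 merged value.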

How the results depend on the processing

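No paired analysis was possible because the merged columns carry no replicate number, and no replicate could be left out. With FPKM plus 1, exosomes against cells gave 2 of 39 Rab genes higher and 26 lower in AFT024, beside 8.26% and 57.4% of all genes. In BFC012, 6 of 41 were higher, beside 8.8% of all genes. The line comparison gave 1 of 40 higher and 2 lower in cells, beside 7.94% and 6.27% of all genes. In exosomes it gave 1 of 40 higher and 11 lower, beside 8.32% and 17.4%. None of the genes called higher between the lines on this scale was called higher by reads. In the difference between the lines, 5 of 41 were lower, beside 15.7%. With FPKM plus 0.1, AFT024 gave 2 of 39 higher and 29 lower, beside 1335 and 8866 of 13971 genes. BFC012 gave 6 of 41 higher and 23 lower, beside 1467 and 7363 of 13984 genes. Between exosomes, 1 of 40 was higher and 13 were lower, beside 1358 and 3105 of 12855 genes. In the difference, 7 of 41 were lower, beside 3296 of 14969 genes. Relative to the median gene, FPKM plus 1 gave 7 of 39 higher and 15 lower in AFT024, beside 3215 and 2960 of 13971 genes. BFC012 gave 10 of 41 higher and 14 lower, beside 3189 and 3030 of 13984 genes. Between cells, 1 of 40 was higher and 2 were lower, beside 1183 and 840 of 14205 genes. Between exosomes, 3 of 40 were lower, beside 1193 of 12855 genes. In the difference, 2 of 41 were higher and 2 lower, beside 1787 and 1335 of 14969 genes. Without a read minimum, 4 of 55 were higher between cells, beside 4388 of 22124 genes. Between exosomes, 4 of 52 were higher, beside 4232 of 19854 genes. In the difference, 2 of 50 were higher and 4 lower, beside 3214 and 3546 of 17644 genes. With at least 100 reads, 1 of 44 was higher between cells, beside 1145 of 11774 genes. Between exosomes, 1 of 40 was higher, beside 1037 of 9987 genes. With intervals past 2-fold, 11 of 47 were lower in AFT024 exosomes against cells, beside 2440 of 13383 genes. Between cells, 1 of 49 was higher, beside 1249 of 14203 genes. Between exosomes, 1 of 45 was higher and 2 were lower, beside 1077 and 1106 of 12358 genes. With the intervals of the lines required to lie apart, 0 of 46 were higher and 0 lower in the difference, beside 795 and 1092 of 12496 genes. Rab29 in AFT024 exosomes against cells turned to a log2 difference of -0.15 with FPKM plus 1, a scale on which the median of all genes was -1.23, and was at 1.08 relative to the median gene. Rab27b in AFT024 turned to 0.035 relative to the median gene. Its exosome FPKM of 0.330 lies below the added 1, and its FPKM ratio without an added value was 0.161. With the longest transcript, an alternative chosen after seeing the data, rho between 3′ UTR GC and ratio was 0.45 in AFT024 and 0.54 in BFC012 for the Rab genes.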

Other observations

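Rab13 is known in mouse fibroblasts as one of a group of mRNAs carried to cell protrusions, and 7 other transcripts of that group were looked up after the value of Rab13 had been seen. All 7 were past 2-fold higher in exosomes than in cells of both lines, with a median ratio of 26.4 in AFT024 and 18.9 in BFC012, beside 0.840 and 0.926 for all measured genes. Past 2-fold higher were 21.2% of all genes in AFT024 and 23.4% in BFC012. Net1, an exchange factor for RhoA, was at 29.4 (28.5 to 30.3) in AFT024 and 35.4 (34.1 to 36.8) in BFC012. Ddr2, a collagen receptor, was the lowest of the 7 at 12.5 (12.2 to 12.7) in AFT024 and 7.19 (7.0 to 7.39) in BFC012. Of all measured genes, 2.93% in AFT024 and 2.39% in BFC012 had a ratio of 10 or more. The list was written by hand with earlier results of these data known, so it cannot show a trait of the group. It was not tested.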
